A study of Mus musculus with 6 samples.

Results

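The SLC37 family of sugar phosphate transporters, Slc37a1 to Slc37a4, was examined together with G6pc3 in mouse bone marrow-derived mast cells with and without a calcium ionophore. Each gene was read from the array row that the platform annotation gives to it alone, and all 5 genes had 1 such row, among 30102 genes with a row of their own. The set was chosen by the ionomycin minus naive difference of Slc37a2, which was already known, so the members' differences below are a description and carry no test. Cells came from femoral marrow of C57BL/6J mice and had matured for 6 weeks with interleukin 3 and stem cell factor-containing supernatant. The 3 naive samples spent 1 h in Tyrode's buffer with 5.5 mM glucose. The 3 ionomycin samples spent that hour in the same buffer with 1 µg/mL ionomycin, a calcium ionophore that triggers granule release in mast cells. All 6 were then kept in culture medium for 3 h before RNA extraction, which puts sampling at 4 h. Nothing in the labels ties replicates to separate cultures or animals, so p-values reflect only the variation among these 6 samples, part of which can be technical.

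SLC37 proteins sit in the membrane of the endoplasmic reticulum (ER) and related compartments and exchange sugar phosphates for inorganic phosphate. SLC37A4, the glucose 6-phosphate transporter, carries glucose 6-phosphate into the ER lumen, where a glucose-6-phosphatase splits it into glucose and phosphate. In blood cells that phosphatase is G6PC3, and loss of either protein is known for impairing neutrophils. SLC37A1 and SLC37A2 exchange glucose 6-phosphate for phosphate but are not known to work with the phosphatase. SLC37A3 is known for its part in releasing bisphosphonate drugs from lysosomes. Slc37a2 was first described as a cAMP-inducible gene of a macrophage line and has since been studied in macrophages and osteoclasts.

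The sequences upstream of 3 members are shown because they belong to the gene with the large difference and to the transporter and phosphatase of the glucose 6-phosphate pair. They are RefSeq sequences of build GRCm38.p6, 250 bases up to each gene's start, 5′ to 3′ on the gene's strand, and none of the 3 windows overlaps a RefSeq gene. Capitals mark matches to TGANTCA, the letters bound by AP-1 factors, to TGACG, one arm of the cAMP response element, or to the E-box CACGTG. The Slc37a2 window is chr9:37255739-37255988 on the minus strand, that of Slc37a4 is chr9:44396696-44396945 on the plus strand, and that of G6pc3 is chr11:102189449-102189698 on the plus strand.
Slc37a2: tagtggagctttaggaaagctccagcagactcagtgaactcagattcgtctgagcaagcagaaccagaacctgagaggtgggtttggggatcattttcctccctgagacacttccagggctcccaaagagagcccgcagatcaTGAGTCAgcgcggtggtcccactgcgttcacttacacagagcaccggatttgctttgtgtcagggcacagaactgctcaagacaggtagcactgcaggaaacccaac
Slc37a4: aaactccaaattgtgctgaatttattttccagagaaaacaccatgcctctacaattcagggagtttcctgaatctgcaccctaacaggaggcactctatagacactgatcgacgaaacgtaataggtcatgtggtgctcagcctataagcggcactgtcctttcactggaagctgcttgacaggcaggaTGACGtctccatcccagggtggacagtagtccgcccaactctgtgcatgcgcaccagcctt
G6pc3: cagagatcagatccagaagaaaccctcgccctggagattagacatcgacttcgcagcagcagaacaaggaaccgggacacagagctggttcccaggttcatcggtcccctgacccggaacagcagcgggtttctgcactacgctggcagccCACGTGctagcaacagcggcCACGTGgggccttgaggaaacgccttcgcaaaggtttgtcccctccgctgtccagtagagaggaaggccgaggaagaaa

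Each upstream window was searched on both strands for these 3 motifs and for TGACGTCA, the whole cAMP response element, every match of which also counts for its arm. The core of NFAT sites, GGAAA, was searched as well. Slc37a2 held 1 TGANTCA, written TGAGTCA, from 107 to 101 bases upstream of the start, and 3 matches to GGAAA. Matches to GGAAA also lay in the window of Slc37a1 (1), in that shown for Slc37a4 (2) and at another of its annotated starts (1), and in that of G6pc3 (1). The motif TGANTCA occurred in 6.75% of the 32851 promoters in the table, and GGAAA in 55.6%. No other member's window, over 8 annotated start sites in all 5 genes, held TGANTCA. Slc37a4 held 1 TGACG in the window shown and 2 at another annotated start, a motif of 17.8% of promoters. Those windows overlap, and 1 of the 2 is the same site as the 1 in the window shown. G6pc3 held 2 CACGTG, found in 6.02% of promoters, and the outer window of Slc37a3 held 1. TGACGTCA, present in 1.55% of promoters, was in no member's window. Among 59 genes called higher after ionomycin that have a promoter in the table, 8 (13.6%) held TGANTCA, Slc37a2 among them, against 1288 of 17079 measured genes (7.54%). The share was also higher among those 59 genes for each of the other motifs searched. It was 6.78% against 2.15% for TGACGTCA, 23.7% against 22.7% for its arm, 66.1% against 58.8% for the NFAT core and 11.9% against 7.77% for the E-box. In these shares a gene counts if any of its annotated starts holds the motif, whatever its number of starts. The motifs were chosen after the promoters were read. These counts and shares describe letters in the windows and say nothing about binding.

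Signals are the authors' processed log2 values. The number of arrays limits their precision, and the levels of different genes cannot be ranked against each other because each row has its own probes. Background was set at a log2 level of 6.04, under which 95% of 1561 odorant, vomeronasal and taste receptor genes had their mean. All 5 members had a mean above it, as did 18958 of the 30102 genes. Medians over all rows ran from 5.88 to 5.99 on naive arrays and from 5.96 to 6.03 on ionomycin arrays, and the median difference over all genes was 0.05. Of the mast cell markers 11 of 11 were above background, with mean log2 levels of 12.47 to 12.58 on naive and 12.48 to 12.52 on ionomycin arrays. Macrophage (12 of 12) and basophil markers (4 of 4) were all above it too, so passing that level does not set mast cells apart. For the 5 members, fewer cells of a type and less RNA per cell cannot be told apart.

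Slc37a2 was the member with a large difference, about 6.55-fold higher after ionomycin. Its log2 signals were 6.82, 7.57 and 7.40 on naive replicates 1, 2 and 3 and 10.21, 9.93 and 9.79 on ionomycin replicates 1, 2 and 3. The groups did not overlap, and the lowest ionomycin array lay 2.21 above the highest naive array. The means were 7.27 ± 0.40 and 9.98 ± 0.22 (SD, n = 3 per group), a log2 difference of 2.71 ± 0.21 (SE). The naive mean lay 1.23 above the background level on the log2 scale. Over all genes, 18.9% had every ionomycin array above every naive array, and 0.289% were called higher by limma at an adjusted p under 0.05. Because this contrast chose the gene, nothing is read from those shares.

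The size of the Slc37a2 difference varied with the replicate number. It was 3.39 on the log2 scale at replicate 1, 2.36 at replicate 2 and 2.38 at replicate 3. Replicate 1 had both the lowest naive and the highest ionomycin signal of the gene. Without both replicate 1 arrays the difference was 2.37 ± 0.09 (SE). By size it ranked 11 among all genes, with Nr4a3 (2.84) and Tnip3 (2.84) just above it and Il3 (2.68) and Rgs16 (2.65) just below. Of the 10 genes with larger differences, 6 were called higher by limma.

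**Figure D1:**
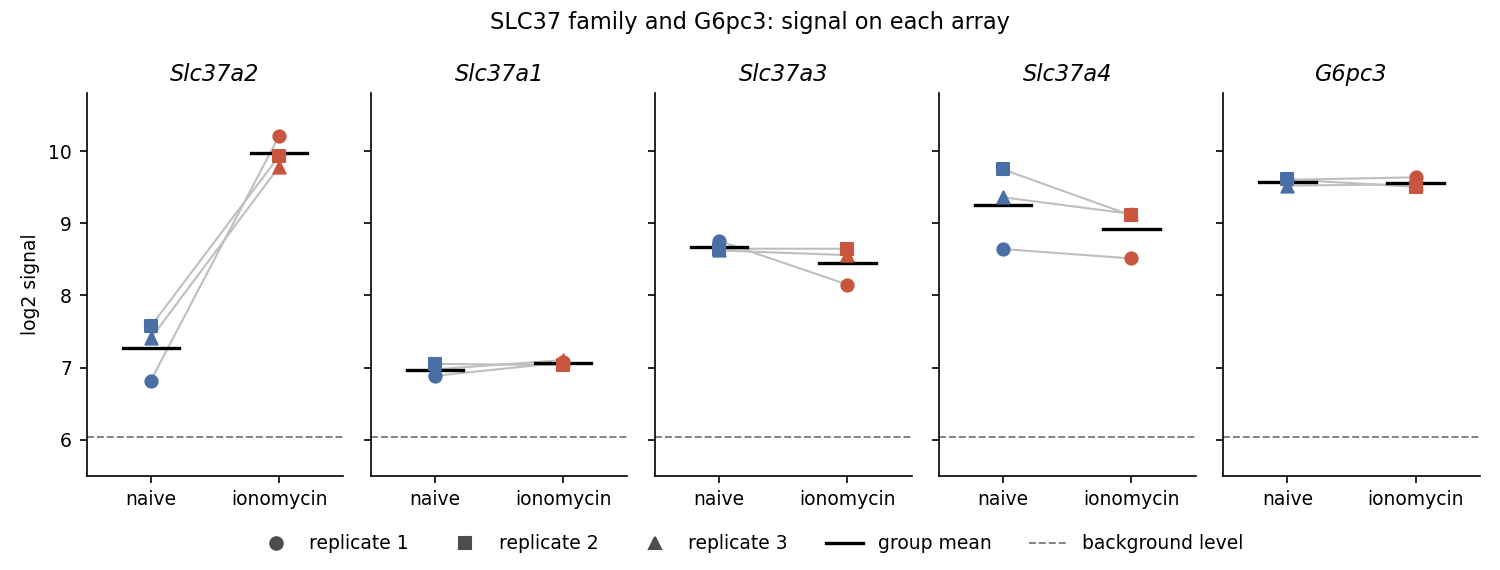
Log2 signal of each gene on each array, naive in blue and ionomycin in red, with marker shape for the replicate number, grey lines joining equal numbers, black bars for group means and a dashed line at the background level of 6.04. Slc37a2 lies between 6.82 and 7.57 on the naive arrays and between 9.79 and 10.21 on the ionomycin arrays, and the groups of the other 4 genes overlap; heights are not comparable between panels.

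Slc37a1, the other phosphate-linked exchanger of this branch of the family, stayed within a narrow band. Its log2 signals were 6.89, 7.05 and 6.98 on naive and 7.07, 7.03 and 7.10 on ionomycin replicates 1, 2 and 3. The groups overlapped, the difference was 0.10 ± 0.06 (SE), and the direction at replicate 2 was opposite to that at replicates 1 and 3. After quantile normalization of the arrays the difference was 0.02 and after centring them on their medians 0.03, beside a median over all genes of 0.01 and -0.01 in those settings.

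Slc37a3, the family member linked to lysosomes, had 2 ionomycin arrays below every naive array. Its log2 signals were 8.76, 8.65 and 8.62 on naive and 8.15, 8.65 and 8.56 on ionomycin replicates 1, 2 and 3. These were replicate 3 and, by more, replicate 1, the array with the highest Slc37a2 signal, and the groups overlapped at replicate 2. The differences at replicates 1, 2 and 3 were -0.61, -0.0001 and -0.06, negative at all 3 numbers as for 16.8% of all genes. The difference was -0.22 ± 0.14 (SE) over all arrays and -0.07 ± 0.08 without ionomycin replicate 1.

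Slc37a4, the glucose 6-phosphate transporter, varied more between replicates than between groups. Its log2 signals were 8.64, 9.75 and 9.36 on naive and 8.51, 9.11 and 9.13 on ionomycin replicates 1, 2 and 3. Both replicate 1 arrays were low, by more than the difference between the group means. The difference was -0.33 ± 0.31 (SE), negative at all 3 replicate numbers (-0.13, -0.64 and -0.23). With the replicate number as a block its SE fell to 0.11. It was -0.64 without naive replicate 1, -0.08 without naive replicate 2 and -0.13 without ionomycin replicate 1.

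G6pc3, the phosphatase that takes its substrate from SLC37A4, was the steadiest of the 5. Its log2 signals were 9.60, 9.61 and 9.52 on naive and 9.64, 9.51 and 9.54 on ionomycin replicates 1, 2 and 3. The groups overlapped and the difference was -0.02 ± 0.06 (SE). Replicate 1 arrays, which were low for Slc37a4, were not low for G6pc3. The family and its partner had 1 member with separated groups and 4 whose groups overlapped, with a median difference of -0.02 against 0.05 over all genes. The separated member, Slc37a2, had chosen the set, and 18.9% of all genes had every ionomycin array above every naive array.

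**Figure D2:**
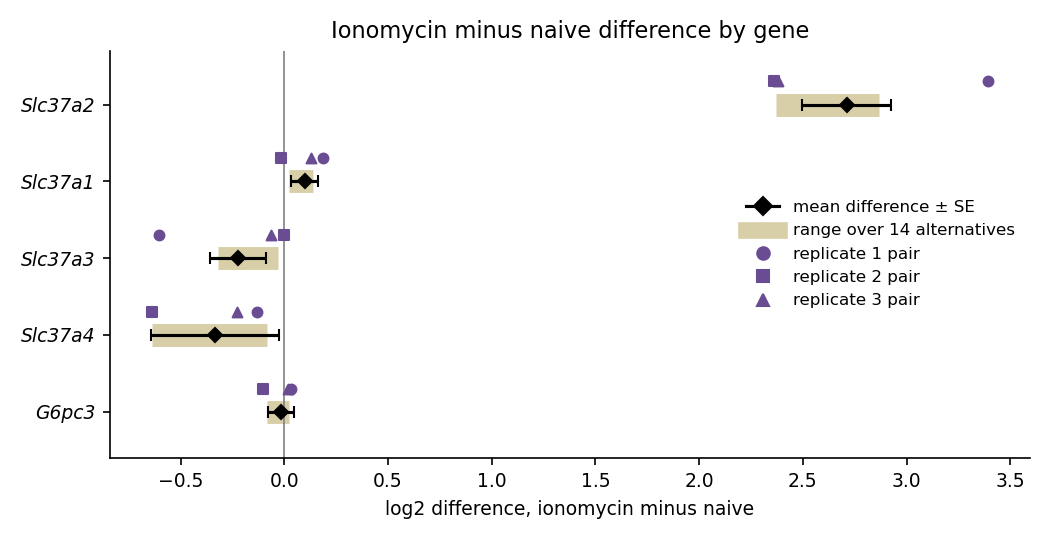
Log2 difference, ionomycin minus naive, of each gene: black diamonds with bars are means with standard errors. Purple marks are the differences at the 3 replicate numbers, which the labels do not pair, and tan bars the range over 14 alternative settings. Slc37a2 stays between 2.37 and 2.87, and its difference at replicate 1 stands apart at 3.39, while the tan bar of G6pc3 spans 0.

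The genes nearest to Slc37a2 in profile came from several functional groups. Nearness was the root mean square difference over the 6 arrays between log2 profiles centred on their own means, among 13558 named genes above background. Unnamed, predicted and small RNA genes were left out, and with them every gene whose symbol starts with Rn. The nearest was Crabp2, a retinoic acid-binding protein, at 0.197. Next came the HSP70 chaperone gene Hspa1a (0.257), Tnip3, whose product binds A20 (0.277), the pseudogene Hsp25-ps1 (0.279) and the growth factor gene Hbegf (0.344). Whether the Hsp25-ps1 row also picks up transcripts of Hspb1, the gene that this pseudogene resembles, was not tested. As for Slc37a2, naive replicate 1 was the lowest naive array for Crabp2, Hspa1a, Hsp25-ps1 and, by little, Hbegf. Ionomycin replicate 1 was the highest ionomycin array for Crabp2, Tnip3, Hsp25-ps1 and Hbegf. The same 5 genes were nearest after quantile normalization, after centring and with the mean of a gene's rows. A gene near Slc37a2 by this measure must rise by a like amount, so nothing is read from the shared direction.

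**Figure D3:**
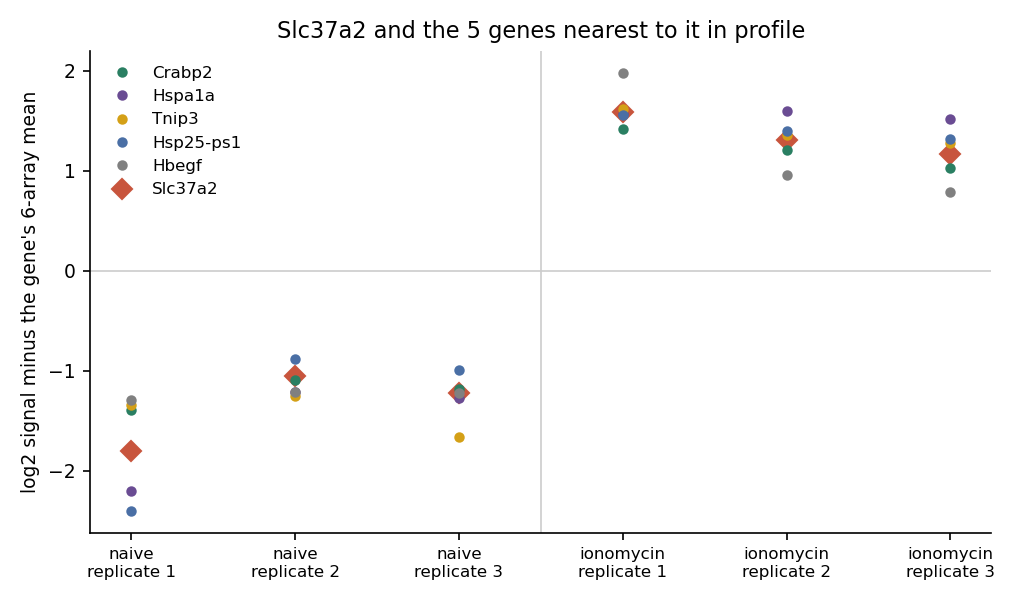
Log2 signal minus the gene's own 6-array mean on each array for Slc37a2 (red diamonds) and the 5 genes nearest to it (dots). Every one is below its mean on the 3 naive arrays and above it on the 3 ionomycin arrays, which follows from the choice by nearness. The spread between genes is widest on naive replicate 1.

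Genes around glucose 6-phosphate were taken as 7 lists of 113 genes, of which 103 were measured, and none of these was called. By limma 0 rose and 0 fell at an adjusted p under 0.05, where 0.349% of all genes were called in either direction. Before adjustment, at a p under 0.05, 12 were higher and 8 lower, and over all genes 10.2% were higher and 5.44% lower by that rule. The median difference of the 103 was 0.04, beside 0.05 over all genes, and their range was -0.54 to 0.82. The Slc37a2 difference of 2.71 lay outside that range, but it had chosen the set, so nothing is read from this.

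Glucose enters mast cells through GLUT transporters and is trapped by hexokinases. In that list 0 of 20 measured genes passed, 4 were higher and 2 lower before adjustment (p under 0.05), and the median difference was 0.13. Slc2a3, encoding GLUT3, had log2 signals of 11.63, 12.99 and 12.97 on naive and 12.85, 13.24 and 13.29 on ionomycin arrays (difference 0.59 ± 0.38 SE, limma adjusted p = 0.446). Without naive replicate 1 its difference was 0.15. Slc2a1, encoding GLUT1, showed the same low naive replicate 1, with 11.44, 13.14 and 12.96 on naive and 12.76, 12.98 and 13.03 on ionomycin arrays (adjusted p = 0.648 by limma), and its difference went from 0.41 to -0.13 without that array. Naive replicate 1 was also low for Slc37a2. Hk1, a hexokinase, differed by -0.27 ± 0.07 (limma adjusted p = 0.207) and Hk2 by -0.08 ± 0.59 (adjusted p = 0.953). The Hk2 difference was -0.75 without naive replicate 1, 0.32 without naive replicate 2, 0.20 without naive replicate 3 and 0.24 without ionomycin replicate 1, so its sign rested on single arrays.

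Of the glucose-6-phosphatase catalytic genes, G6pc3 was above background and the other two were not. G6pc, the liver glucose-6-phosphatase, and the islet form G6pc2 had means of 5.38 and 5.28 over naive arrays. H6pd, which oxidises glucose 6-phosphate inside the ER, differed by -0.12 ± 0.07 (limma adjusted p = 0.440). In this list, which also holds gluconeogenic enzymes, 0 of 9 passed, 0 were higher and 0 lower before adjustment (p under 0.05), and its median difference was 0.02. Pck2 (-0.14, adjusted p = 0.802) and Pcx (-0.26, adjusted p = 0.333) did not pass in limma, and Pck2 was at 0.13 without naive replicate 1.

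Glycerol 3-phosphate is the substrate after which a bacterial relative of the SLC37 proteins is named. Of 10 measured genes of its metabolism, 0 passed, while 3 were higher and 1 lower before adjustment (p under 0.05), with a median difference of 0.11. Gpd1, which makes glycerol 3-phosphate from a glycolytic intermediate and was singled out after its values were seen, had log2 signals of 7.52, 7.69 and 7.73 on naive and 8.13, 8.17 and 8.21 on ionomycin arrays. Its groups did not overlap, and its difference of 0.52 ± 0.07 (SE) missed the threshold (limma adjusted p = 0.0603, and 0.0560 with the replicate block). It passed after quantile normalization (adjusted p = 0.0479) and after centring (0.0451). Pgp, a phosphatase that acts on glycerol 3-phosphate, differed by 0.43 ± 0.14 (limma adjusted p = 0.269), and Gpd2, the mitochondrial dehydrogenase, was at 10.75 in both groups.

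In glycolysis and lactate transport 0 of 20 measured genes passed, 2 were higher and 1 lower before adjustment (p under 0.05), and the median difference was 0.07. The glycolytic enzyme genes Gapdh and Pgk1 differed by -0.04 and 0.10 (limma adjusted p = 0.772 and 0.699), with Gapdh at 0.00195 after quantile normalization and Pgk1 at -0.02 without naive replicate 1. The largest difference of all 7 lists was that of Slc16a1, the lactate transporter MCT1, at 0.82 ± 0.15 (SE, limma adjusted p = 0.108). It passed without ionomycin replicate 1 (0.99 ± 0.06, adjusted p = 0.0235). When any other single array was left out it did not pass, with limma adjusted p from 0.158 to 0.374.

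In the pentose phosphate pathway, which also consumes glucose 6-phosphate, 0 of 11 measured genes passed, 1 was higher and 0 lower before adjustment (p under 0.05), and the median was -0.06. Taldo1 and Pgd differed by -0.14 and -0.13 (limma adjusted p = 0.518 and 0.445). Of 20 measured glycogen genes 0 passed, 0 were higher and 3 lower before adjustment (p under 0.05), and the median was -0.15. Pygl, a glycogen phosphorylase, differed by -0.21 (limma adjusted p = 0.413) and Pgm2, a phosphoglucomutase, by 0.12 (adjusted p = 0.454). Of 13 phosphate transport genes 0 passed, 2 were higher and 1 lower before adjustment (p under 0.05), and the median was 0.05. Xpr1, the phosphate exporter, differed by 0.04 and Slc20a1, a phosphate importer, by 0.30 (limma adjusted p = 0.878 and 0.544). The Slc20a1 difference was 0.06 without ionomycin replicate 1 and 0.48 without naive replicate 1.

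**Figure D4:**
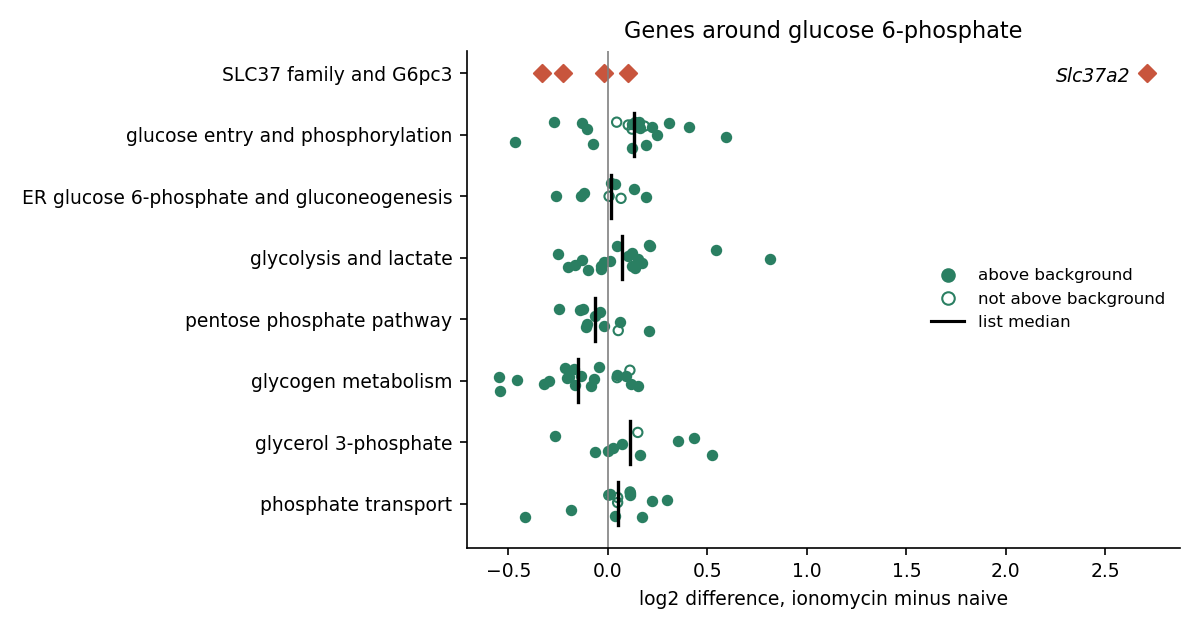
Log2 difference, ionomycin minus naive, of the 5 members (red diamonds) and of the genes of 7 lists (green, open where not above background), with black bars at list medians. The list genes lie between -0.54 and 0.82, and Slc37a2, whose difference chose the set, at 2.71.

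Chromosomal neighbours of Slc37a2 showed small differences. For each member the nearest 2 measured RefSeq genes on each side were taken by position, 20 genes in all. By limma 0 passed, 6 were higher and 0 lower before adjustment (p under 0.05), and the differences ran from -0.64 to 0.36. That rule took 10.2% of all genes as higher and 5.44% as lower. Of the 6, Tmem218 lies beside Slc37a2, Ubash3a, Rsph1 and Pde9a lie near Slc37a1, Gm26306 beside Slc37a4 and Tmem101 near G6pc3. Around Slc37a2, Pknox2 differed by 0.14 ± 0.06, Tmem218 by 0.28 ± 0.10, Gm10177 by 0.19 ± 0.12 and Ccdc15 by -0.04 ± 0.33 (SE, limma adjusted p = 0.330, 0.292, 0.439 and 0.953). Slc37a4 lies near Hyou1, an ER chaperone gene, which differed by -0.001 ± 0.07 (limma adjusted p = 0.994).

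**Figure D5:**
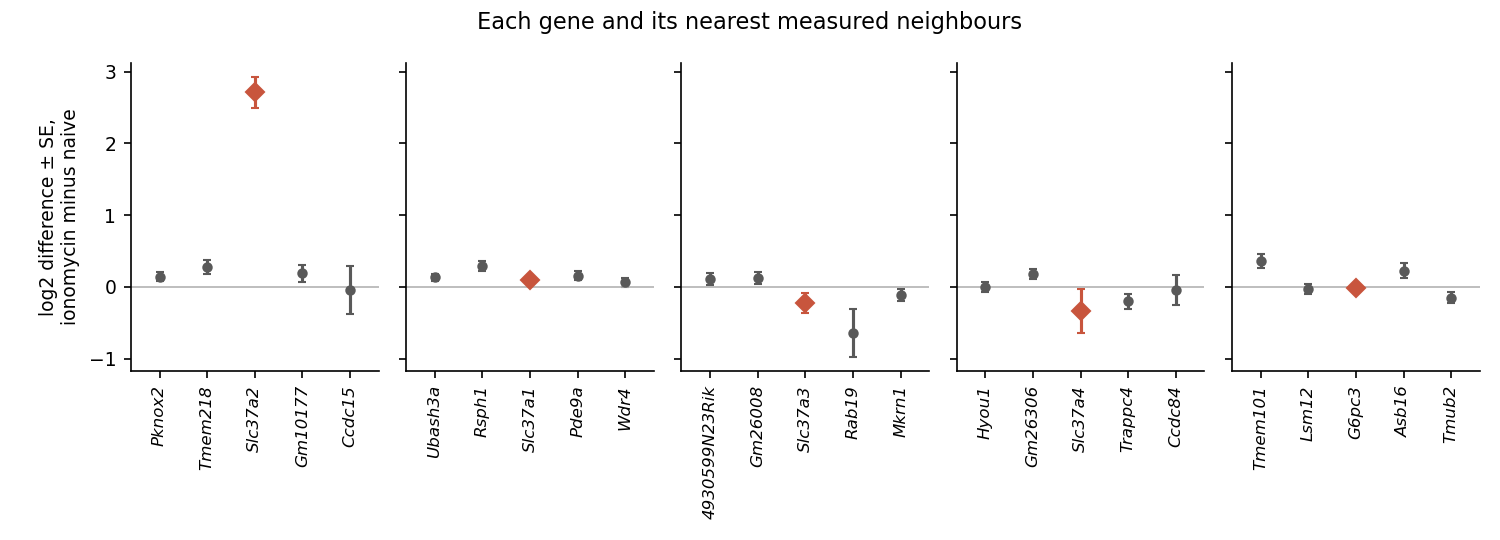
Log2 difference with its standard error, ionomycin minus naive, of each member (red diamonds) and of its nearest measured neighbours in chromosomal order (grey dots). Beside Slc37a2 at 2.71, its 4 neighbours lie between -0.04 and 0.28.

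Other cells that such cultures can hold were read through their markers, since Slc37a2 is known from macrophages and osteoclasts. Of 12 measured macrophage markers 0 passed, with 3 higher and 0 lower before adjustment (10.2% and 5.44% of all genes), a median difference of 0.15, and mean log2 levels of 7.67 to 7.98 on naive and 7.77 to 8.19 on ionomycin arrays. The 3 were Mertk, Cd14 and Marco, with differences of 0.37, 0.35 and 0.19 (limma adjusted p = 0.165, 0.320 and 0.255). All 12 were above background, among them Lyz2 (10.71 ± 1.02 and 10.87 ± 0.79) and Cd68 (11.45 ± 0.83 and 11.17 ± 0.43, SD, n = 3 per group). Of 8 osteoclast markers 0 passed, with 1 higher and 0 lower before adjustment, a median of 0.11 and mean levels of 6.67 to 6.86 and 6.76 to 6.95. Of the 8, 6 were above background, among them Atp6v0d2 (means 9.09 on naive and 9.22 on ionomycin arrays), and Calcr and Dcstamp were not. The 1 higher was Acp5, with means of 7.82 and 8.09 and a difference of 0.27 (limma adjusted p = 0.296). Neutrophil (0 of 11, median 0.02, mean levels 6.22 to 6.32 and 6.14 to 6.37) and basophil markers (0 of 4, median 0.02, mean levels 9.05 to 9.89 and 8.99 to 9.91) did not pass either, with 0 and 1 lower and 0 higher before adjustment. Of 11 mast cell markers 0 passed, with 1 higher and 3 lower by that rule. The 1 higher was Hdc, with a difference of 1.04 (limma adjusted p = 0.180). The 3 lower were Ms4a2, Kit and Gata2, with differences of -0.62, -0.39 and -0.21 (limma adjusted p = 0.163, 0.222 and 0.240). Some markers differed by replicate number. The basophil marker Mcpt8 was at 10.36 and 10.60 on naive and ionomycin replicate 1 and between 9.03 and 9.20 on the other arrays. Prss34 and Mcpt9 were also highest at replicate 1 in both groups, and Cd200r3 only among naive arrays. Lyz2 was lowest at replicate 3 in both groups (9.54 and 9.98). The part of these other cells in the Slc37a2 signal was not tested.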

How the data were processed

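Total RNA of 6 samples, 3 naive and 3 ionomycin, was labelled with biotin for whole-transcript Affymetrix arrays, per the labels. The values are the authors' processed log2 signals as deposited, 65770 rows with 0 missing values, from 3.01 to 14.6. The submitters' processing notes name the R package oligo, and the sources used here give neither its settings nor a genome build; the log2 scale was read from the values. Whether the authors scaled or centred arrays stays unknown.

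Rows were named by the platform annotation when it gives 1 distinct symbol (30439 rows; 2146 name several and 33185 none), with 827 symbols updated through RefSeq GRCm38.p6, and the brightest row per gene was kept. The 2 groups were compared in limma 3.58.1 (R 4.3.3; lmFit and eBayes, two-sided, Benjamini-Hochberg over 30102 genes, threshold 0.05), and an adjusted p is from that fit unless another setting is named beside it; the fit was tested on simulated data. A gene list is described by counts and median, without a list test. Members, lists and motifs were chosen with earlier results of these data known, and motifs after the promoters were read. Named list genes are those called, then the 2 brightest above background, plus Slc2a1, Slc2a3, Hk1, Hk2, G6pc and H6pd; named neighbours and nearest profiles follow position and distance. Extremes of lists and genes called under an alternative were named after their values were seen. G6pdx was not analysed here.

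Replicate numbers are shared between groups. Correlations across genes of deviations from group means were 0.711, 0.475 and 0.469 for equal numbers 1, 2 and 3, all over 0.1, so the number was also fitted as a block. Crossed numbers 2 and 3 gave 0.481 and 0.524, no lower than equal numbers, so only replicate 1 stood apart and a pairing of 2 and 3 was not shown. Figures used matplotlib 3.10.9.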

Additional observations from a re-analysis of the deposited data

How the results depend on the processing

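Over 14 alternatives the difference of Slc37a2 stayed between 2.37 and 2.87, that of Slc37a1 was positive in all (0.02 to 0.14) and those of Slc37a3 (-0.32 to -0.03) and Slc37a4 (-0.64 to -0.08) negative in all. G6pc3 was positive in 2 of 14 (-0.08 to 0.02). Leaving out 1 array gave 0.06 to 0.14 for Slc37a1, 2.49 to 2.87 for Slc37a2, -0.32 to -0.07 for Slc37a3, -0.64 to -0.08 for Slc37a4 and -0.06 to 0.01 for G6pc3. Values that moved by more than the replicate SD were Slc37a1 after quantile normalization (0.0212) and centring (0.0329), G6pc3 after centring (-0.0835) and Slc37a2 without both replicate 1 arrays (2.37).

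Of list genes, 1 (Gpd1) was called higher after quantile normalization and 1 (Gpd1) after centring, and 0 to 1 (Slc16a1) without 1 array, with 0 lower. Without both replicate 1 arrays 2 were higher (Gpd1, Slc16a1) and 3 lower (Eno2, Pgm2l1, Txnip). With the replicate block 0 list genes and 0 neighbours were called, and the block changed no other call among them. No neighbour was called in any alternative run. Of 23 list genes recomputed, 8 took both signs when 1 array was left out, none of them called there: Slc2a1 (-0.129 to 0.721), Hk2 (-0.745 to 0.316), Pck2 (-0.323 to 0.134), Pgk1 (-0.0221 to 0.228), Xpr1 (-0.0871 to 0.124), G6pc (-0.0438 to 0.0650), Gpd2 (-0.159 to 0.0821) and Eno2 (-0.647 to 0.294). Signs also turned after quantile normalization for Gapdh (0.00195) and G6pc (-0.0515), after centring for Xpr1 (-0.0284) and G6pc (-0.0599), and without both replicate 1 arrays for Slc2a1 (-0.0466), Pgk1 (-0.0479) and Xpr1 (-0.0646). The cause was not tested.

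Over all genes 87 were higher and 18 lower. The lower count was 33 with the replicate block, 32 after centring (69 higher, a split of 68.3% higher against 82.9%), 9 with all rows tested and 9 with trend and robust settings. Without 1 array the counts ran from 1 to 95 higher and from 0 to 55 lower: the omission of an ionomycin array gave 35 and 0 (replicate 1), 1 and 0 (replicate 2) and 7 and 0 (replicate 3), and that of a naive array 95 and 55 (replicate 1), 13 and 0 (replicate 2) and 8 and 1 (replicate 3). They were 423 and 429 without both replicate 1 arrays. With 3 arrays a group, a missed threshold does not show that a gene was unchanged.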
